A study of Schmidtea mediterranea with 36 samples.

Results

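X2 cells of *Schmidtea mediterranea* planarians that had been starved for 1 day (1dS) were compared with Xins cells of planarians at the same time. The comparison took the 4 X2 libraries and the 4 Xins libraries at 1dS by their labels, 8 of the 36 libraries of the series. Of the 26558 transcripts in the deposited tables, 16620 had a mean of at least 1 TPM (transcripts per 1000000) over these 8 libraries and were tested. The series holds 3 FACS populations (X1, X2 and Xins), each sorted after 1, 7 or 30 days without food, with 4 replicates. Planarians of the asexual biotype were fed veal liver, last fed 1 day before, and chosen for a like body area. Their dissociated cells were stained with the nuclear dye Hoechst and the cytoplasmic dye Calcein-AM, with propidium iodide to discard dead cells. The X2 gate takes resting stem cells (G0/G1) and the progeny of stem cells, the Xins (X-ray insensitive) gate takes differentiated cells, and the X1 gate takes stem cells that replicate or divide (S/G2/M). The labels name no transgene or RNAi for any group. Each replicate pooled planarians. Whether X2 and Xins of the same number came from the same ones is not given in the sources used here, and the p-values below reflect only how much these libraries vary, which may be technical variation.

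Planarian stem cells, the neoblasts, are the dividing cells of the adult animal and give rise to all of its cell types. A neoblast that leaves the cycle passes through progenitor states before it becomes an epidermal, gut, muscle or nerve cell. X2 therefore mixes resting stem cells with cells on the way to differentiation, and Xins holds cells that have finished it. A gate is a region of dye signal and not a pure cell type. In such bulk libraries fewer cells of a type and less RNA per cell cannot be told apart.

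The libraries of X2 and Xins were far apart. Over the tested transcripts, Pearson's r on the log2(TPM + 1) scale was between 0.925 and 0.958 for the 6 pairs of X2 libraries. It was between 0.695 and 0.761 for X2 with Xins replicates 1 and 3, and between 0.622 and 0.685 for X2 with Xins replicates 2 and 4. The 4 Xins libraries fell into these same sets, with an r of 0.98 between replicates 1 and 3, 0.987 between replicates 2 and 4, and 0.903 to 0.925 across the sets. No label explains this split. Transcripts above 0 numbered 16180, 23357, 19079 and 24268 in X2 replicates 1 to 4, against 20466, 24012, 21973 and 24122 in Xins, so replicates 1 and 3 were the lower ones in both populations, and the means did not differ beyond their spread (exact two-sided permutation test over 70 arrangements, p = 0.429). The 10 most abundant transcripts took 13.1%, 11.2%, 13.5% and 7.86% of X2 libraries, against 21.7%, 13.9%, 18.8% and 15.3% of Xins libraries. These 2 sets of shares did not overlap, and the exact p of 0.0286 is the smallest that 4 against 4 can give.

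At an adjusted p under 0.01 (limma on log2(TPM + 1), Benjamini-Hochberg over all tested transcripts), 1456 transcripts were higher and 4679 were lower in X2 than in Xins. These are 8.76% and 28.2% of those tested. The calls that were higher in X2 had a median log2 difference of 1.65 and a median level of 37.3 TPM over the 8 libraries. Those that were lower had a median absolute difference of 2.36 at a median level of 10.1 TPM. Measured from 0, the falls were thus larger, and they lay among scarcer transcripts. All tested transcripts had a median of -0.50, and these sizes are not corrected for that shift. A difference of at least 4 on the log2 scale was reached by 65 of the higher and 452 of the lower transcripts. In Xins, 245 of the higher transcripts averaged under 1 TPM, and in X2, 1762 of the lower ones did. The 8 libraries did not overlap for 1435 of the 1456 and for 4655 of the 4679 calls, beside 12.4% of all tested transcripts that lay apart upwards and 33.2% that lay apart downwards.

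The split of calls depended on the scale. The median of all tested transcripts was -0.50 (log2, X2 minus Xins) after scaling each library to 1000000, -0.02 with median-of-ratios factors and 0.21 with quantile normalization. The calls were then 2691 higher (16.9% of those tested) and 4377 lower (27.5%) with median-of-ratios factors. They were 3625 higher (21.6%) and 3881 lower (23.1%) with quantile normalization. The share of calls that were higher was thus 23.7%, 38.1% and 48.3% under these 3 scalings. Differences of gene groups are therefore read against the median of -0.50. Counts of members above 0 stand beside 5918 of all 16620 tested transcripts that were above 0. With the values as deposited, before rescaling, 10% of those tested were higher and 34.3% lower. No transcript called in one direction was called in the other under any of these scalings.

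**Figure D1:**
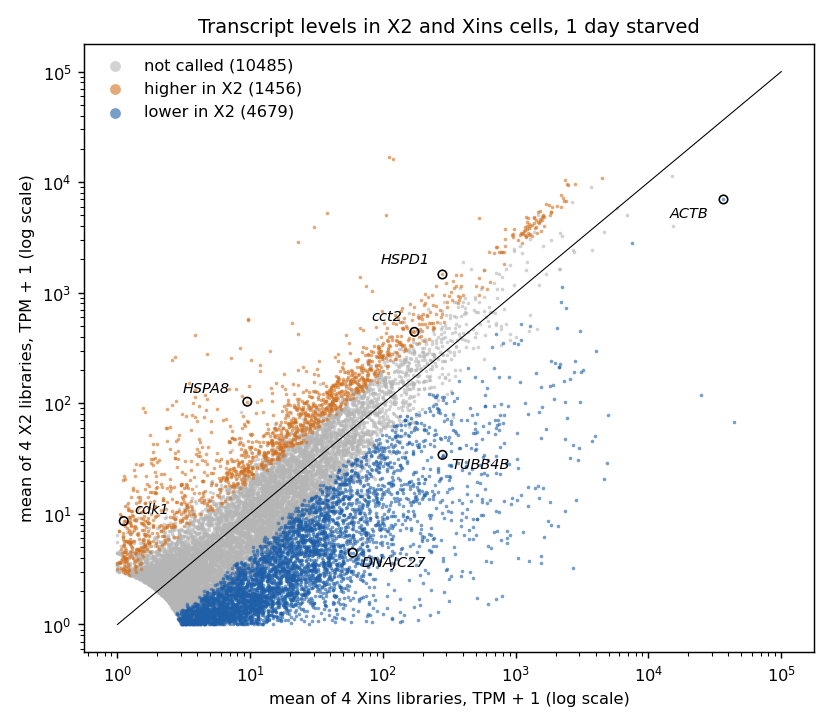
Mean TPM + 1 of 4 X2 libraries (vertical) against 4 Xins libraries (horizontal), both on log scales, for the 16620 transcripts tested, with equal levels on the line. The 1456 orange points were higher and the 4679 blue points lower in X2, and the genes circled are described in the text.

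The called transcripts held a large share of the libraries in which they were high. The 1456 transcripts higher in X2 took 58%, 57.2%, 60.8% and 55.3% of the X2 libraries, against 19.6%, 14.5%, 18.5% and 13.9% of the Xins libraries. The 4679 lower ones took 4.96%, 5.46%, 4.03% and 6.04% of X2, against 40.7%, 54.6%, 47.1% and 55.6% of Xins. These shares describe the calls and carry no test, since the same values made the calls. In Xins the transcripts higher in X2 took more of replicates 1 and 3 than of replicates 2 and 4. Fits within these sets and with a term for them are given below, and the cause of the split was not tested.

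The transcripts with the largest differences had no gene name in the sources used here. The transcript dresden_comp61_c0_seq1 stood at 17008, 18734, 22469 and 9909 TPM in X2, against 134, 31.7, 91.6 and 187 TPM in Xins, a log2 difference of 7.45 ± 0.49 (SE, limma, adjusted p = 1.35e-06). The transcript dresden_comp69_c0_seq1 stood at 14544, 20043, 15638 and 14172 TPM in X2, against 82.1, 39.7, 76.5 and 270.3 TPM in Xins (7.44 ± 0.47). The lowest X2 library of either transcript thus lay far above the highest Xins library. In the other direction, dresden_comp210_c1_seq1 stood at 50.4, 77.8, 34.2 and 103 TPM in X2, against 31289, 53050, 29942 and 62089 TPM in Xins (-9.40 ± 0.38, adjusted p = 9.95e-08). The transcript dresden_comp707_c0_seq1 stood at 1.48, 4.61, 0.769 and 2.10 TPM in X2, against 1633, 3562, 2556 and 3045 TPM in Xins (-9.78 ± 0.37). X1 libraries averaged 1351 and 1223 TPM for the pair that was high in X2, so both were far more abundant in X2 than in either other gate. For the pair that was high in Xins, X1 averaged 62.6 and 5.10 TPM, far under Xins.

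Gene names were available for 150 transcripts, which the study's tables match to genes of planarians or of other animals, and 138 of them were tested. Of these, 39 were higher and 13 lower in X2, beside 8.76% and 28.2% of all transcripts. They are mostly genes of protein folding, translation and the cytoskeleton, so the named genes are not a sample of the transcriptome. Where a symbol stands for several transcripts, the Dresden number tells them apart. Reads shared by near-identical copies were divided by the authors' estimation, so a single copy's level is uncertain.

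The cell cycle kinase *cdk1*, which drives entry into mitosis, gives a check of the gates. It stood at 9.34, 7.13, 6.58 and 7.40 TPM in X2, against 0.153, 0.0594, 0.0505 and 0.197 TPM in Xins. All X2 libraries lay far above all Xins libraries, with means of 7.61 ± 1.20 and 0.115 ± 0.0718 TPM (SD, n = 4 each) and a log2 difference of 2.94 ± 0.29 (limma, adjusted p = 1.59e-05). In X1, where cells are in S to M phase, it averaged 55.8 TPM with a range of 40.9 to 78.6, so X2 held an intermediate level.

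Transcripts annotated to mitotic S phase, the stage of DNA replication, were higher in X2. Of 25 tested members, 17 were higher and 0 lower, beside 8.76% and 28.2% of all transcripts. Their median was 1.28, beside -0.50 over all tested transcripts. Their differences ran from -0.23 to 1.90, and the 17 called averaged 3.23 to 523 TPM in X2, against 0.237 to 214 TPM in Xins. Between 12 and 15 members stayed above the threshold when any 1 library was left out. Of 22 tested members annotated to catabolism through the anaphase-promoting complex, a ubiquitin ligase of mitosis, 13 were higher and 1 lower, and 8 were higher without X2 replicate 2. This is largely the same set, since 22 of the 27 transcripts listed for S phase belong to both lists. The S phase counts are therefore not read as a result about DNA replication alone. The member of the catabolism list that was lower is the tubulin *TUBA1C* (508), described with the cytoskeleton. The study drew these lists from transcripts that changed with starvation in X1, and its copy used here holds only part of the longer ones.

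Genes of RNA production followed the same direction. Of 18 tested members annotated to mRNA splicing, 9 were higher and 0 lower in X2, beside 8.76% and 28.2% of all transcripts, and the median was 1.19. With median-of-ratios factors or quantile normalization 17 of them passed, where 16.9% and 21.6% of all transcripts were higher. All 18 differences were above 0, from 0.15 to 2.01. Of 19 members for transcription elongation, in which RNA polymerase moves along the gene, 8 were higher and 0 lower (median 0.94). Without X2 replicate 2 or without Xins replicate 1, 5 of these passed. With median-of-ratios factors 14 passed and with quantile normalization 17, beside 16.9% and 21.6% of all transcripts. The elongation factor genes *TCEA2* and *SPT5* did not pass. X1 means lay above X2 means for 17 of the 18 splicing members and 17 of the 19 elongation members. Both lists came at least in part from transcripts that changed with starvation in X1, so the choice of members already used X1 values.

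The translation machinery was the largest named group. Of 34 tested members of the translation complex list, 16 were higher and 2 lower in X2, beside 8.76% and 28.2% of all transcripts, with a median of 1.05. The number that were higher was 8 with the values as deposited, before rescaling, 8 without X2 replicate 2, 10 without Xins replicate 2 and 10 without Xins replicate 4. The 14 tested transcripts for subunits of eIF3, the scaffold that brings mRNA to the small ribosomal subunit, gave 9 higher and 1 lower, and 13 of the 14 were above 0. *EIF3F* (1642) stood at 541, 425, 635 and 306 TPM in X2, against 178, 114, 185 and 90.3 TPM in Xins. No library overlapped, and the log2 difference was 1.75 ± 0.31 (limma, adjusted p = 0.000843). With the values as deposited its adjusted p was 0.0209.

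*EIF3G* showed both directions in its 2 transcripts. Number 5500 stood at 133, 152, 144 and 178 TPM in X2, against 43.2, 50.1, 44.8 and 45.8 TPM in Xins (1.69 ± 0.21, adjusted p = 6.73e-05). Number 15937 was scarce and went the other way, at 2.63, 2.71, 1.29 and 4.70 TPM in X2, against 7.80, 20.8, 8.68 and 20.2 TPM in Xins (-1.95 ± 0.42, adjusted p = 0.00277). The call of the scarce copy was lost without Xins replicate 2 (adjusted p = 0.0106) and without Xins replicate 4 (0.0103). Both differences had the same sign at 7 and 30 days, where the libraries are other ones.

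Elongation factors of translation were higher as well, in 2 of 4 tested transcripts of eEF1, beside 8.76% of all transcripts. *EEF1G* (308), the gamma subunit of the complex that reloads eEF1A with GTP, stood at 2976, 1534, 3179 and 1589 TPM in X2, against 984, 433, 684 and 425 TPM in Xins. Replicates 1 and 3 were the higher ones in each population, and no library overlapped (1.88 ± 0.36, limma, adjusted p = 0.00121). The adjusted p was 0.0258 as deposited and 0.0121 with median-of-ratios factors. *EEF1A1* (30), which carries aminoacyl-tRNA to the ribosome, averaged 10901 ± 1239 TPM in X2 and 4470 ± 420 TPM in Xins (SD, n = 4 each, log2 difference 1.28, adjusted p = 0.000591). Of 7 tested transcripts of eIF2, which brings the initiator tRNA, and of its exchange factor eIF2B, 3 were higher and 0 lower. All 7 differences were above 0, and over all transcripts 8.76% were higher and 28.2% lower. *DDX3X* (3817), an RNA helicase, was lower, at 12.3, 21.5, 8.10 and 29.3 TPM in X2, against 39.8, 57.9, 43.3 and 56.5 TPM in Xins. Its call (-1.55 ± 0.37, adjusted p = 0.00503) was lost when X2 replicate 1 or 3, or Xins replicate 2, 3 or 4, was left out, with adjusted p up to 0.019.

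Aminoacyl-tRNA synthetases, which load tRNAs with amino acids, were mostly above 0. Of 12 mitochondrial ones, 2 were higher and 0 lower (median 0.83), and of 19 others, 5 were higher and 0 lower (median 0.85). Over all transcripts 8.76% were higher and 28.2% lower, so the count of higher mitochondrial ones lies little above that share. All 12 mitochondrial differences and 17 of the 19 others were above 0, beside 5918 of all 16620 tested transcripts. The second count was 2 without X2 replicate 2, and 3 without Xins replicate 1 or 3. *Yars2* (11234), the mitochondrial tyrosyl enzyme, stood at 69.4, 53.2, 57.9 and 34.3 TPM in X2, against 17.5, 9.43, 18.1 and 10.8 TPM in Xins (1.88 ± 0.31, limma, adjusted p = 0.000534). *VARS2* (11344), the mitochondrial valyl enzyme, averaged 36.7 ± 7.52 TPM in X2 and 13.6 ± 4.13 TPM in Xins (SD, n = 4 each, adjusted p = 0.00206). *MARS* (3471), the methionyl enzyme of the cytosol, averaged 130 ± 31.4 TPM in X2 and 41.4 ± 13.3 TPM in Xins (SD, n = 4 each, adjusted p = 0.000664, and 0.0100398 as deposited). Under the 3 other scalings, 7 to 12 mitochondrial and 9 to 14 other synthetases passed. Of all transcripts, 10% were then higher as deposited, 16.9% with median-of-ratios factors and 21.6% with quantile normalization.

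**Figure D2:**
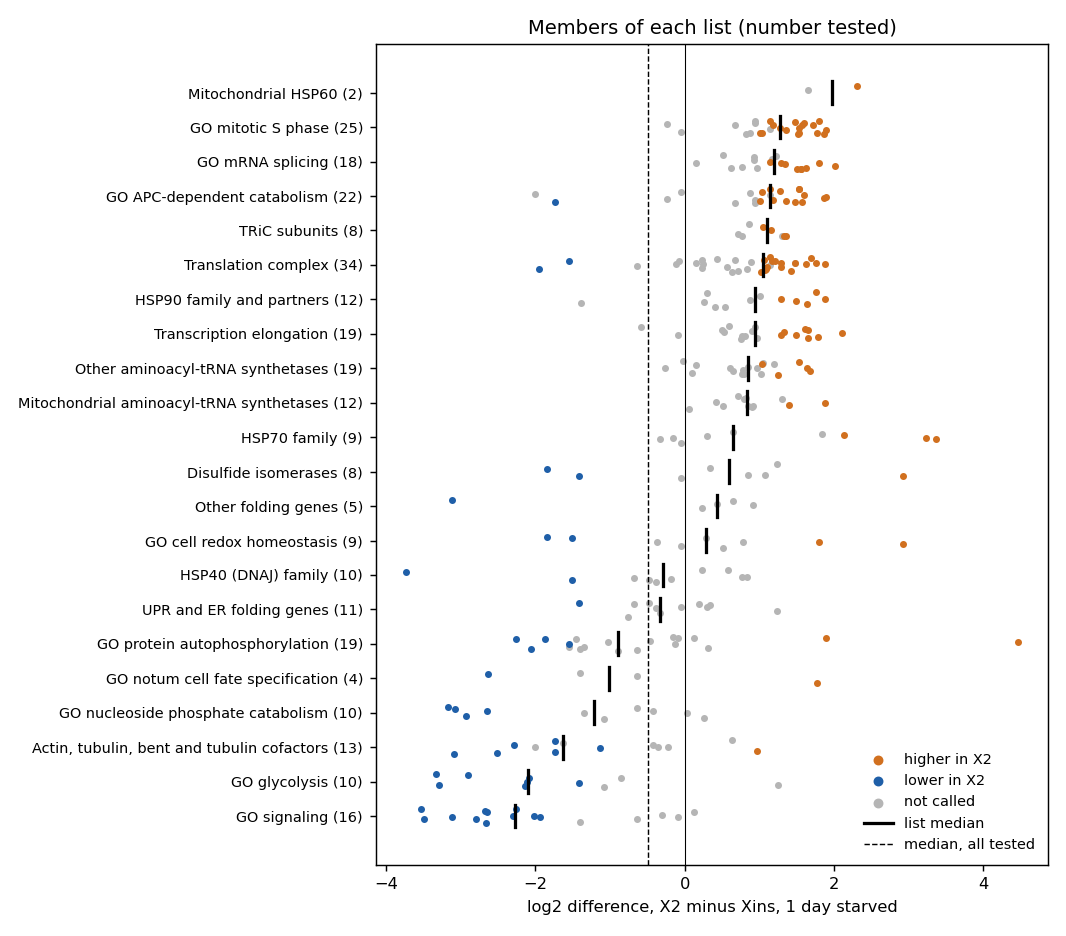
Log2 difference, X2 minus Xins at 1 day starved, of each tested member (points, with random vertical spread) of 22 lists, with the list median (bar) and the median of all tested transcripts, -0.50 (dashed line). S phase, splicing, transcription, translation and synthetase lists lie to the right, with medians of 0.83 to 1.28, and signaling and glycolysis to the left, at -2.28 and -2.10.

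The chaperonin TRiC, a ring of 8 kinds of subunit that folds actin, tubulin and other proteins of the cytosol, was above 0 in all 8 subunits, with a median of 1.11. Of these, 4 passed as higher and 0 as lower, beside 8.76% of all transcripts that passed as higher. *cct2* (525) stood at 404, 526, 370 and 469 TPM in X2, against 153, 190, 173 and 170 TPM in Xins. The libraries did not overlap (1.35 ± 0.21, limma, adjusted p = 0.000319). *cct8A* (903) stood at 374, 527, 404 and 519 TPM in X2, against 182, 170, 190 and 172 TPM in Xins (1.33 ± 0.21, adjusted p = 0.000354). Both subunits thus stood at over 2 times the Xins level in means, 2.58-fold and 2.56-fold.

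*cct6* (527) averaged 599 ± 63.9 TPM in X2 and 271 ± 63.9 TPM in Xins (SD, n = 4 each, limma, adjusted p = 0.00142), and 0.0262 as deposited. Its difference was 0.92 within replicates 1 and 3 (adjusted p = 0.0176) and 1.40 within replicates 2 and 4 (0.00221). *cct4B* (773) averaged 336 ± 83.4 TPM in X2 and 159 ± 18.2 TPM in Xins (adjusted p = 0.00309). Its adjusted p was 0.0111 without X2 replicate 2. The other 4 subunits did not pass. *cct3A* (435) stood at 229, 399, 223 and 516 TPM in X2, against 125, 221, 161 and 218 TPM in Xins (0.86 ± 0.33, adjusted p = 0.0475), and *cct5* (544) had a difference of 0.76 ± 0.23 (adjusted p = 0.019), with no overlap of the libraries in either gene. *cct1A* (1025) had 1.31 ± 0.50 (adjusted p = 0.0494) and *cct7* (847) 0.71 ± 0.38 (adjusted p = 0.151), both with overlap. Within replicates 1 and 3 *cct1A* passed (1.34, adjusted p = 0.00316), and within replicates 2 and 4 it did not (1.27, 0.0156). In *cct1A* and *cct7*, X2 replicates 2 and 4 and Xins replicates 2 and 4 were the higher libraries, so the spread within a population came from the same sets in both. With a term for the 2 sets of replicates, chosen after the data were seen, all 8 subunits passed, beside 15.2% of all transcripts. Under the 3 other scalings 5 to 8 subunits passed, beside 10% to 21.6% of all transcripts. X1 means lay above X2 means for all 8 subunits, *cct2* averaging 484 TPM there.

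HSP70 chaperones, which bind unfolded stretches of proteins, split by transcript. Of 9 tested, 3 were higher and 0 lower in X2 (median 0.64), beside 8.76% and 28.2% of all transcripts. All 3 were copies of *HSPA8*, the constitutive chaperone of the cytosol. Number 1332 stood at 81.1, 124, 50.8 and 154 TPM in X2, against 5.64, 10.2, 6.65 and 11.5 TPM in Xins (3.37 ± 0.37, limma, adjusted p = 3.59e-05). Number 1459 stood at 95.8, 172, 75.5 and 269 TPM in X2, against 8.79, 23.0, 8.48 and 18.5 TPM in Xins (3.24 ± 0.45, adjusted p = 0.000159). These 2 copies were 12-fold and 10.4-fold higher in X2 by their means. Number 2221 stood at 53.1, 79.7, 55.3 and 121 TPM in X2, against 8.51, 24.7, 10.8 and 26.6 TPM in Xins (2.14 ± 0.41, adjusted p = 0.00135). The most abundant copy, number 320, averaged 609 TPM in X2 and 383 TPM in Xins and did not pass (0.64, adjusted p = 0.263).

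Of the 2 transcripts for the mitochondrial chaperonin HSP60, 1 was higher, beside 8.76% of all transcripts. *HSPD1* (141), the HSP60 chaperonin of the mitochondrial matrix, stood at 879, 1736, 700 and 2535 TPM in X2, against 149, 372, 207 and 390 TPM in Xins. Replicates 2 and 4 were the higher ones in each population, the populations did not overlap, and the difference was 2.15 within replicates 1 and 3 and 2.46 within replicates 2 and 4 (2.31 ± 0.45 over all 8, limma, adjusted p = 0.00142). The scarcer *HSPD1* (6294) had a difference of 1.65 and did not pass (adjusted p = 0.0135), and passed under each of the 3 other scalings. *TRAP1* (1445), the HSP90 of mitochondria, stood at 220, 322, 246 and 407 TPM in X2, against 58.2, 94.9, 66.4 and 102 TPM in Xins (1.88 ± 0.28, adjusted p = 0.000257). The mitochondrial HSP70 *HSPA9* (424) averaged 545 TPM in X2 and 142 TPM in Xins and did not pass (1.85, adjusted p = 0.024).

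Of 12 members of the HSP90 family and its partners, 5 were higher and 0 lower (median 0.94), beside 8.76% and 28.2% of all transcripts. *PPIH* (2417), a prolyl isomerase of the spliceosome, averaged 99.5 ± 8.12 TPM in X2 and 28.6 ± 2.43 TPM in Xins (means ± SD, n = 4 each, limma, adjusted p = 5.22e-05). *FKBP1B* (672), another prolyl isomerase, stood at 1116, 1019, 953 and 954 TPM in X2, against 417, 277, 329 and 283 TPM in Xins (1.64 ± 0.21, adjusted p = 0.000105). The 2 transcripts of HSP90 itself, *HSP90AA1* (56 and 678), did not pass, with differences of 1.01 and 0.30. Of 10 HSP40 co-chaperones, which hand clients to HSP70, 0 were higher and 2 lower, and the list median of -0.29 lay near that of all transcripts.

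*DNAJC27* (5753), a Rab-like GTPase with a J domain, had the largest fall among the named genes. It stood at 4.20, 2.997, 2.91 and 3.74 TPM in X2, against 67.4, 52.6, 55.5 and 57.0 TPM in Xins (-3.73 ± 0.25, limma, adjusted p = 1.38e-06). The Xins mean was 16.8 times the X2 mean, and the X1 mean was 0.682 TPM. *SH3GLB1* (1387), endophilin B1, a protein that bends membranes, stood at 14.5, 14.7, 9.34 and 31.7 TPM in X2, against 90.2, 248, 81.6 and 245 TPM in Xins (-3.11 ± 0.46, adjusted p = 0.000254). Xins replicates 2 and 4 had over 2 times the level of replicates 1 and 3, and the difference was -2.78 within replicates 1 and 3 and -3.45 within replicates 2 and 4.

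**Figure D3:**
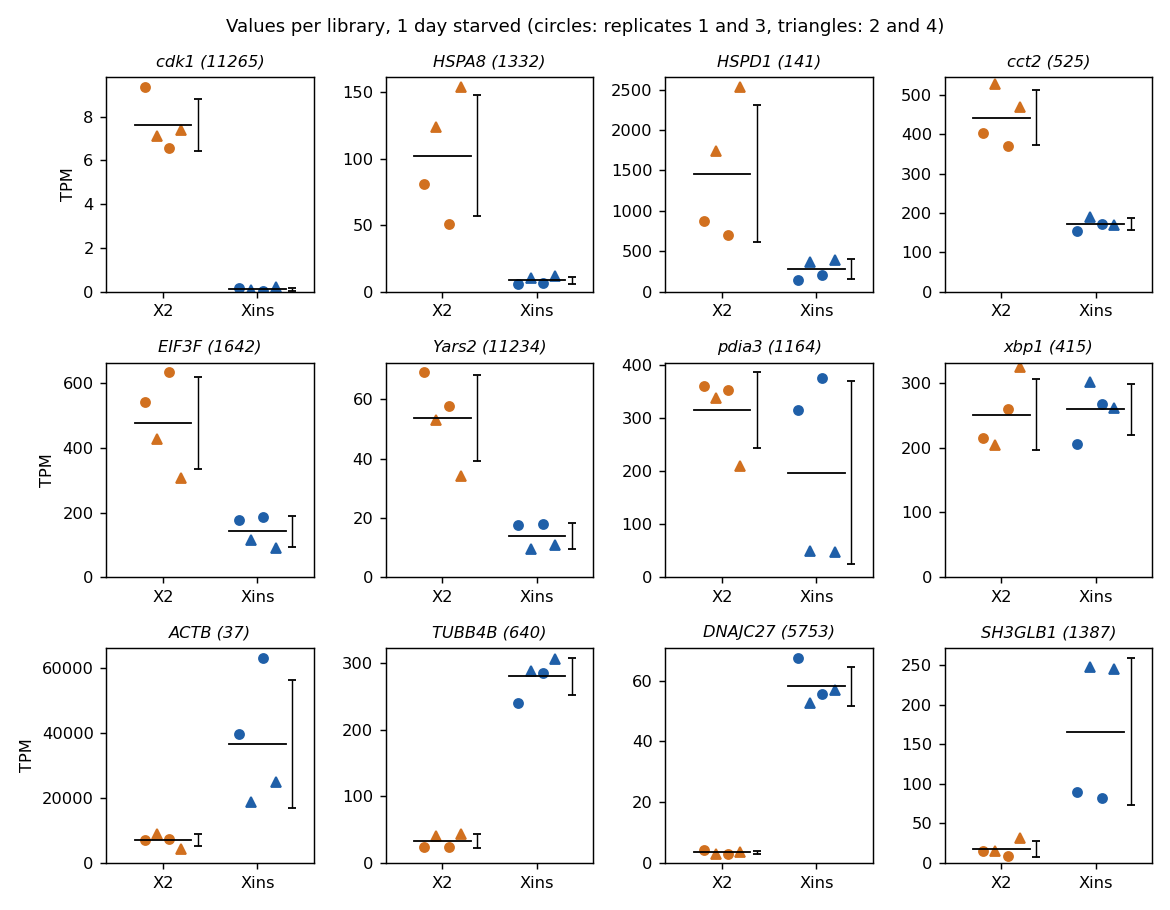
TPM in each of the 4 X2 (left, orange) and 4 Xins (right, blue) libraries at 1 day starved for 12 transcripts, with Dresden numbers in parentheses, the mean (line) and the SD (bar beside it), each panel on its own linear scale from 0. Circles are replicates 1 and 3, triangles replicates 2 and 4. *pdia3* and *xbp1* overlap between populations, and the other 10 do not.

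Genes of the unfolded protein response, by which cells adjust the endoplasmic reticulum (ER) to misfolded protein, were measured in 11 tested transcripts. Of these, 0 were higher and 1 was lower in X2, beside 8.76% and 28.2% of all transcripts. Their median of -0.33 lay close to the -0.50 of all transcripts. The transcription factor *xbp1* (415) stood at 215, 204, 260 and 324 TPM in X2, against 205, 301, 267 and 261 TPM in Xins. The libraries overlapped, and the difference of -0.06 ± 0.23 (limma, adjusted p = 0.869) changed sign under 3 other scalings and without single libraries. The ER stress sensor *atf6* (3847) had 29.1, 42.5, 18.8 and 70.8 TPM in X2, against 20.02, 46.0, 21.6 and 47.3 TPM in Xins (0.20 ± 0.44, adjusted p = 0.747). The ER chaperone *bip-1* (511), an HSP70, had 309, 313, 345 and 608 TPM in X2, against 319, 597, 457 and 581 TPM in Xins (-0.33 ± 0.30, adjusted p = 0.397). *bip-2* (2648) and the calcium-binding chaperone *calr* (220) did not pass, with differences of 0.30 ± 0.29 and -0.76 ± 0.49. Both *bip-3* transcripts averaged under 1 TPM in each population and were not tested.

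The disulfide isomerases, which form the S-S bonds of secreted proteins, were called in both directions. Of 8 tested, 1 was higher and 2 were lower, shares near the 8.76% and 28.2% of all transcripts. With median-of-ratios factors 3 were higher and 0 lower, where 16.9% of all transcripts were higher and 27.5% lower. As deposited or with quantile normalization 2 were higher, beside 10% and 21.6% of all transcripts. *P4HB* (13521) stood at 11.4, 10.02, 6.74 and 17.9 TPM in X2, against 0.230, 0.822, 0.326 and 1.04 TPM in Xins (2.92 ± 0.36, limma, adjusted p = 7.73e-05). Its X1 mean was 2.32 TPM, so X2 was the highest of the 3 gates. The abundant copy of *P4HB* (250) averaged 657 TPM in X2 and 692 TPM in Xins (-0.05, adjusted p = 0.942).

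*pdia13* (10003) was lower, at 20.9, 15.9, 14.7 and 31.2 TPM in X2, against 45.5, 71.5, 41.8 and 63.9 TPM in Xins (-1.41 ± 0.30, limma, adjusted p = 0.00274). Its call was lost without X2 replicate 2 (adjusted p = 0.0114), without Xins replicate 2 (0.0103) and with median-of-ratios factors (0.0254). *PDIA5* (821) averaged 35.4 ± 19.1 TPM in X2 and 131 ± 73.0 TPM in Xins (SD, n = 4 each, adjusted p = 0.00487). It did not pass when X2 replicate 1, 2 or 3, or Xins replicate 2 or 4, was left out, with adjusted p up to 0.0175. *pdia3* (1164) had 360, 338, 353 and 209 TPM in X2, against 315, 50.4, 374 and 47.9 TPM in Xins. The Xins libraries of replicates 1 and 3 thus lay at the X2 level and those of replicates 2 and 4 far under it, and the difference was 0.05 within replicates 1 and 3 and 2.41 within replicates 2 and 4 (1.23 ± 0.64 over all 8, adjusted p = 0.140).

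Several transcripts of the cytoskeleton were lower in X2. Of 13 tested transcripts for actin, tubulin, the giant muscle protein bent and a tubulin cofactor, 1 was higher and 6 were lower, beside 8.76% and 28.2% of all transcripts, and the median was -1.64. *ACTB* (37), an actin, stood at 7108, 8903, 7513 and 4394 TPM in X2, against 39782, 18893, 63136 and 25056 TPM in Xins. No library overlapped, although Xins replicates 1 and 3 had far more than replicates 2 and 4, and the difference was -2.78 within replicates 1 and 3 and -1.80 within replicates 2 and 4 (-2.29 ± 0.39 over all 8, limma, adjusted p = 0.000645). Its adjusted p was 0.0293 as deposited and 0.0940 with median-of-ratios factors. The second actin, *ACTB* (246), averaged 1653 TPM in X2 and 2167 TPM in Xins (-0.23, adjusted p = 0.682).

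*TUBB4B* (640), a beta tubulin, stood at 23.3, 40.9, 24.6 and 44.0 TPM in X2, against 240, 288, 285 and 306 TPM in Xins (-3.09 ± 0.26, limma, adjusted p = 6.57e-06). *TUBA1C* (508), an alpha tubulin, stood at 190, 191, 125 and 323 TPM in X2, against 458, 801, 552 and 914 TPM in Xins (-1.74 ± 0.33, adjusted p = 0.00117). *TUBA1A* (2143) averaged 110 ± 47.6 TPM in X2 and 363 ± 118 TPM in Xins (SD, n = 4 each, adjusted p = 0.00126). Of the 9 tested tubulin transcripts, 4 were lower and 1 was higher, beside 28.2% and 8.76% of all transcripts, so not all of the family fell. The higher one, *TUBA1C* (1623), averaged 94.3 ± 23.9 TPM in X2 and 46.7 ± 5.27 TPM in Xins (adjusted p = 0.00684). It passed without X2 replicate 3, and without any 1 of the other 7 libraries it did not, with adjusted p up to 0.0267. Within replicates 1 and 3 its adjusted p was 0.0295, and within replicates 2 and 4 it was 0.00682.

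The muscle gene *bt* (2544), the match of fly bent, a titin-like protein of the sarcomere, stood at 3.92, 9.73, 1.30 and 6.69 TPM in X2, against 16.3, 56.4, 17.2 and 53.9 TPM in Xins (-2.51 ± 0.56, limma, adjusted p = 0.00333). The X1 mean was 0.721 TPM. It did not pass without X2 replicate 1 (adjusted p = 0.0117), Xins replicate 2 (0.0107) or Xins replicate 4 (0.0104). It was the only muscle gene that the sources used here tie to a transcript, and markers of epidermis, neurons, gut and cilia were not analysed here.

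Lists of metabolism and signaling lay on the Xins side. Of 10 tested transcripts annotated to glycolysis, the breakdown of glucose, 0 were higher and 7 were lower in X2, beside 28.2% of all transcripts that were lower. Their median was -2.10, and the 7 averaged 4.26 to 476 TPM in X2, against 49.0 to 2113 TPM in Xins. Between 6 and 9 were lower under every alternative scaling and every omission of 1 library. Of 16 annotated to signaling, 0 were higher and 11 lower (median -2.28), with 9 to 12 over the same alternatives. Quantile normalization called 2 signaling members higher, and each of the 3 other scalings called 1 glycolysis member higher. The members of these lists carry no symbol, so the enzymes are not named. The study drew both lists, and the annotation lists that follow, from transcripts that changed with starvation in X1. The counts therefore hold for the listed members and not for whole pathways.

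Of 10 transcripts for nucleoside phosphate catabolism, 4 were lower and 0 higher (median -1.22), beside 28.2% and 8.76% of all transcripts. Of 19 for protein autophosphorylation, 2 were higher and 4 lower (median -0.89), near the 8.76% and 28.2% of all transcripts. The count of lower ones was 9 as deposited, 10 with a term for the 2 sets of replicates, 2 with quantile normalization, 2 without X2 replicate 1 or 3 and 1 without Xins replicate 2 or 4. Of 9 for cell redox homeostasis, 2 were higher and 2 lower, beside the same shares of all transcripts. The lower ones, *PDIA5* (821) and the HSP40 *DNAJC16-like* (5863), did not pass without X2 replicate 1, 2 or 3 or without Xins replicate 2 or 4, and the second had adjusted p up to 0.0257. Of the 4 transcripts for the fate of the notum, a term from the fly thorax, 1 was higher and 1 lower. Of 5 other folding genes, 0 were higher and 1, *SH3GLB1*, was lower.

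The X1 libraries at 1dS set these differences beside the dividing stem cells, as levels only, since they were not part of the fit. Of the 1456 transcripts higher in X2, the X1 mean was above the X2 mean for 979, between X2 and Xins for 443 and below Xins for 34. In 195 all 4 X2 libraries lay above all X1 and all Xins libraries, and for 69 of these the X2 mean was at least 4 times both other means. Of the 4679 transcripts lower in X2, the X1 mean was the lowest for 3883, between for 792 and the highest for 4. The named groups differed in this order. X1 exceeded X2 for all 8 TRiC subunits, 18 of 25 S phase members and 26 of 34 translation members, and for 0 of the 11 unfolded protein response genes. The S phase list was drawn from transcripts that changed with starvation in X1, so the choice of its members already used X1 values. No share of all tested transcripts with X1 above X2 is set beside these counts. *xbp1* averaged 50.2 ± 13.9 TPM in X1 (SD, n = 4), against 251 TPM in X2 and 259 TPM in Xins.

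**Figure D4:**
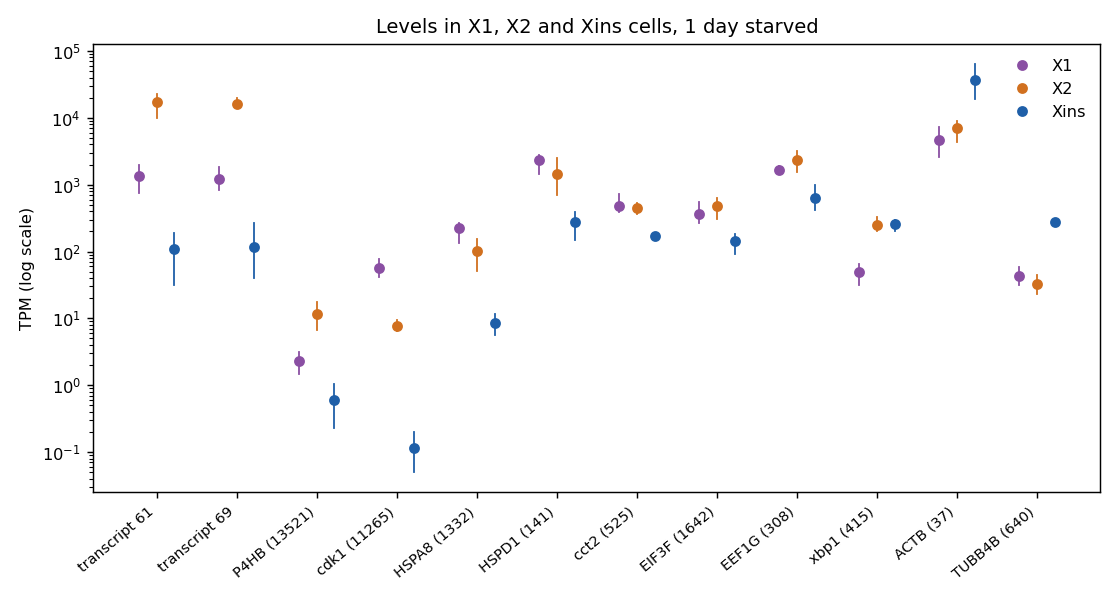
Mean (point) and range over 4 libraries (line) in TPM, on a log scale, of 12 transcripts in X1, X2 and Xins cells at 1 day starved. Transcripts 61 and 69 and *P4HB* (13521) are highest in X2, *cdk1* falls in steps over the 3 gates, and *xbp1* is low in X1 and level between X2 and Xins.

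The same contrast at 7 and 30 days uses other libraries and shows which differences recurred. At 7 days 1471 transcripts were higher (8.32% of 17690) and 5293 lower (29.9%) in X2. Both times called 1047 as higher, which is 71.9% of the 1dS list and 71.2% of the 7-day list, and 4146 as lower, 88.6% and 78.3%. At 30 days 1572 were higher (9.17% of 17136) and 4210 lower (24.6%), and the lists shared 1071 (73.6% and 68.1%) and 3589 (76.7% and 85.2%). All 3 times called 981 transcripts higher and 3525 lower. Across the transcripts tested at both times, r of the log2 differences was 0.937 with 7 days and 0.928 with 30 days, a description over genes that are not independent.

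At the later times the deviations of same-numbered X2 and Xins libraries correlated at 0.643 to 0.837 at 7 days and 0.302 to 0.826 at 30 days. No label pairs them, and values for unlike numbers are not given here, so pairing is not shown. With the number as a block, the calls were 3508 higher and 8921 lower at 7 days, where 17690 transcripts were tested. At 30 days they were 3248 higher and 6734 lower, with 17136 tested. Lists of such length hold more of any other list, so the shares of the 1dS list are read beside these lengths. These blocked lists held 1375 and 1371 of the 1456 transcripts higher at 1dS, which is 94.4% and 94.2% of that list and 39.2% and 42.2% of the blocked lists. They held 4563 and 4451 of the 4679 lower ones (97.5% and 95.1% of that list, 51.1% and 66.1% of the blocked lists).

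The difference itself was also tested between times. The X2 minus Xins difference at 1dS departed from that at 7 days for 59 of 17291 transcripts at an adjusted p under 0.1 (limma, interaction), 18 with a greater value at 1dS (0.104%) and 41 with a smaller one (0.237%). From that at 30 days it departed for 210 of 16986, 41 greater (0.241%) and 169 smaller (0.995%). These counts rested on single libraries. The first was 7, 28, 9 and 143 without X2 replicates 1 to 4, and 6, 12, 11 and 23 without Xins replicates 1 to 4. The second was 133 without X2 replicate 1 or 3, 400 without X2 replicate 4 and 124 without Xins replicate 2. With the replicate number as a block the counts were 1168 and 1804.

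Among named genes, *DNAJC27* (5753) had an interaction of -1.78 with 7 days (limma, adjusted p = 0.0426) and -2.11 with 30 days (adjusted p = 0.00694). It was lower in X2 at all 3 times, by 3.73, 1.96 and 1.62 on the log2 scale at 1, 7 and 30 days. *cdk1* had a difference of 2.94 at 1 day, 1.42 at 7 days and 2.06 at 30 days, all called. Its interaction of 1.53 with 7 days (limma, adjusted p = 0.0917) passed in 6 of 15 alternatives. X2 means were 7.61, 2.28 and 3.41 TPM at 1, 7 and 30 days, against 0.115, 0.199 and 0.0449 TPM in Xins. At such Xins levels the 1 added before the log compresses the differences, so they are not read as fold changes. With 0.1 added instead, the *cdk1* interaction was 2.23 (adjusted p = 0.328). *ACTB* (37) had a difference of -2.29 at 1 day, -0.49 at 7 days and -0.25 at 30 days. Its interaction was -2.04 with 30 days (adjusted p = 0.0533), which passed in 10 of 15 alternatives, and did not pass with 7 days (adjusted p = 0.250).

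*HSPA8* (2221), *TUBA1C* (508) and *TUBA1A* (2143) were called at 1dS and at neither later time. Their interactions did not pass, with adjusted p of 0.560, 0.160 and 0.207 against 7 days and 0.495, 0.191 and 0.174 against 30 days, so a difference between the times was not shown. *xbp1* was called higher at 30 days (0.89, limma, adjusted p = 0.00942) but not at 1dS, and its interaction did not pass either (adjusted p = 0.258). For the TRiC subunits no interaction passed, and *cct2*, *cct6* and *cct8A* were called at each of the 3 times.

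**Figure D5:**
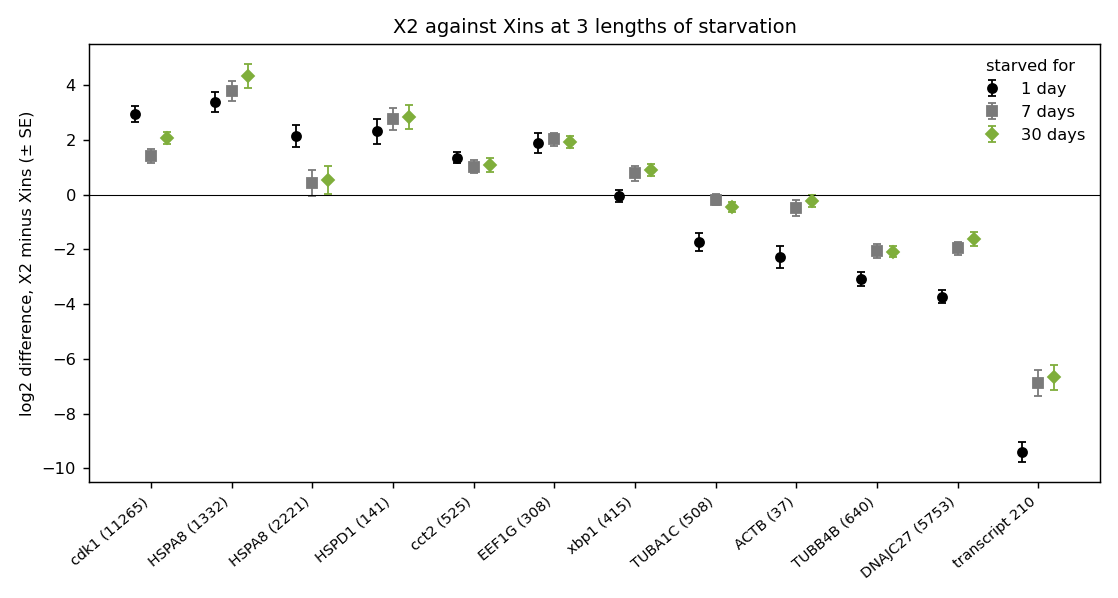
Log2 difference, X2 minus Xins, with its SE, after 1, 7 and 30 days without food for 12 transcripts. *HSPA8* (1332), *HSPD1*, *cct2* and *EEF1G* keep a positive difference at all 3 times, and *ACTB* (37) runs from -2.29 at 1 day to -0.25 at 30 days.

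A few transcripts were called in opposite directions. None that was higher at 1dS was called lower later, while 2 that were lower at 1dS were called higher at 7 days and 3 at 30 days. They were chosen after their values were seen, are 4 transcripts in all and carry no symbol. The clearest, dresden_comp888_c0_seq1, was called higher at both later times. It stood at 0.887, 1.28, 1.45 and 2.03 TPM in X2, against 33.3, 34.6, 12.9 and 31.0 TPM in Xins at 1dS (-3.51 ± 0.37, limma, adjusted p = 2.44e-05). At 7 days it stood at 3.26, 7.93, 7.52 and 5.36 TPM in X2, against 1.82, 0.876, 0.848 and 2.06 TPM in Xins (1.53, adjusted p = 0.00284). At 30 days it stood at 5.65, 6.25, 9.11 and 3.85 TPM in X2, against 2.16, 2.10, 1.405 and 2.25 TPM in Xins (1.24, adjusted p = 0.00592). The Xins level was thus high only in the libraries of 1dS, and the interactions of -5.04 and -4.75 had adjusted p of 0.000242 and 0.000246. The other 3, dresden_comp3101_c0_seq1, dresden_comp1984_c0_seq1 and dresden_comp5390_c0_seq1, were called at 1 later time each, with group means of 0.218 to 14.7 TPM.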

How the data were processed

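The data are RNA-seq of FACS populations, and the analysis used the 8 libraries of X2 and Xins at 1dS, with those at 7 and 30 days and X1 at 1dS for comparison. TruSeq libraries were read single-end on a HiSeq2500. Bowtie2 served the authors to take out ribosomal reads, and kallisto 0.43.0 with the Dresden transcriptome gave TPM. The deposited signal is TPM divided by a Sleuth size factor, with 1 table per population, normalized apart. Each library was therefore rescaled to a total of 1000000, at which kallisto TPM stand before normalization. Deposited totals ran from 815848 to 1935392. The values are not counts, so depth per library and counting error are unknown here and no count model was used.

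Two-sided tests were run on log2(TPM + 1) in R 4.3.3 by limma (version 3.58.1, with the prior variance fitted along the mean level), after transcripts that averaged under 1 were left out. This scale understates the change of scarce transcripts. Adjusted p are Benjamini-Hochberg over all transcripts tested, under 0.01 between populations, as the study set it between its populations, and under 0.1 for interactions with time, taken from its comparisons of times within X1. Single library measures used exact permutation tests. Tables were read with the data.table package (1.17.8) and pandas 2.3.3, and plots drawn with matplotlib 3.10.9.

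Symbols and lists came from the study's supplementary tables by transcript number, and every listed number was found in the deposited tables. The longer annotation lists are cut short in the copy used, and only the numbers it holds were taken. The named genes are those of the study's own gene table, the 10 largest differences in each direction among transcripts that have a symbol, average 10 TPM or more and show no overlap, up to 3 per list and direction, and up to 5 per direction without a symbol, of which 2 are printed. The members and lists were chosen with earlier results of these data known.

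On simulated data for X2 against Xins at 1dS (16620 transcripts, 200 of them changed), the fit called 63% of log2 changes of 2 and 1% of log2 changes of 1, with 1.54% false calls. For the interaction with 7 days (17291 transcripts) these shares were 59%, 3% and 4.62%, and with 30 days (16986 transcripts) 55%, 8% and 11.3%. These shares hold for 200 changed transcripts, whereas the measured contrast at 1dS gave 6135 calls. A log2 difference of at least 2 was reached by 427 of its 1456 higher and 3072 of its 4679 lower calls. Recovery with that many changed transcripts was not tested. Changes were simulated only in transcripts whose mean log2(TPM + 1) lay above that of 10 TPM. The median level of all tested transcripts was 8.31 TPM over the 8 libraries at 1dS. Errors were drawn independently for each library, without sets of replicates. The shares therefore do not cover scarcer transcripts or libraries that fall into sets. Alternatives covered the pseudocount, the filter, 3 other scalings, the trend, a 12-library fit, the threshold, the replicate block and leaving out each library. Fits within replicates 1 and 3, within replicates 2 and 4 and with a term for these sets were added after the data were seen.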

Additional observations from a re-analysis of the deposited data

Results flagged for a closer look

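Among the values printed above, 3 single libraries lay apart from the other 3 of their group by more than chance gives in about 1 of 20 groups, with 112 groups examined. That is no more groups than this rate alone would give. *pdia3* (1164) had 209 TPM in X2 replicate 4, against 338 to 360 TPM in the other X2 libraries. *cct6* (527) had 366 TPM in Xins replicate 3, against 226 to 247 TPM in the other Xins libraries. *bip-1* (511) had 608 TPM in X2 replicate 4, against 309 to 345 TPM in the other X2 libraries.

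The difference between X2 and Xins itself differed between times for 4 named transcripts. For *DNAJC27* (5753) it was lower at 1dS than at 7 days by -1.78 and than at 30 days by -2.11 (limma interaction, adjusted p = 0.0426 and 0.00694). For *cdk1* (11265) it was higher at 1dS than at 7 days by 1.53 (adjusted p = 0.0917, and 0.328 with a pseudocount of 0.1). For *ACTB* (37) it was lower at 1dS than at 30 days by -2.04 (adjusted p = 0.0533), and for dresden_comp210_c1_seq1 by -2.73 (adjusted p = 0.0542). Over the 15 alternatives the adjusted p of these 4 ran from 0.00132 to 0.506, and only *DNAJC27* with 30 days passed in all 15.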

How the results depend on the processing

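Between 1020 and 1404 transcripts were higher and 3722 to 4966 lower when any 1 library was left out. The number that were higher became 2691 with median-of-ratios factors, 3625 with quantile normalization, 2239 at a threshold of 0.05 and 2526 with a term for replicates 1 and 3 against 2 and 4, while the other settings stayed within 1.5 times of both counts. With the replicate number as a block, 2452 were higher and 6731 lower, among them 7 TRiC subunits that were higher. Same-numbered deviations correlated at 0.262, 0.0142, 0.553 and 0.699 at 1dS, so the numbers were not taken to pair the libraries there. The interaction with 7 days counted 30 and 103 transcripts at pseudocounts of 0.1 and 5, 217 with median-of-ratios factors, 241 with quantile normalization, 1168 with the replicate block and 6 to 143 without 1 library. That with 30 days counted 462, 573 and 1804 under the last 3 settings named, and 124 to 400 without 1 library. The cause of these shifts was not tested. Signs that turned were all of uncalled genes. *xbp1* became 0.010 as deposited, 0.56 with median-of-ratios factors, 0.11 with quantile normalization and 0.014 within replicates 1 and 3, and ran from -0.19 to 0.035 without 1 library, above 0 without X2 replicate 1 or 2 or Xins replicate 2. *atf6* ran from -0.12 to 0.50 without 1 library, under 0 without X2 replicate 4 or Xins replicate 1. With median-of-ratios factors *bip-1* became 0.29, *dnajb9* 0.21 and *dnajb11* 0.13, and *dnajb9* 0.12 with quantile normalization.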
